A study of Mus musculus with 26 samples.

Results

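De novo lipogenesis, the synthesis of fatty acids from acetyl-CoA, was followed at the mRNA level in brown adipose tissue (BAT) of 26 mice through 10 genes. The genes were chosen by name: the enzymes Acly, Acss2, Me1, Acaca, Acacb, Fasn, Scd1 and Scd2, and the transcription factors Srebf1 and Mlxipl. All 10 are among the 50686 genes listed in the count table and all 10 passed the filter on low counts, which kept 17286 genes. The mice were males of the C57BL/6J strain, aged 12 to 16 weeks when placed at thermoneutrality, and the tissue is labelled supraclavicular BAT. The whole-tissue libraries, each from a single mouse, fell into 4 groups. Control littermates, labelled WT, were studied at thermoneutrality (WT30, 7 mice) and after 6 h at 5 °C (WT5, 5 mice). Mice labelled KO, in which Adiponectin-Cre acts on floxed Mllt4 alleles (now Afdn, the gene of the scaffold protein Afadin), were studied at thermoneutrality (KO30, 7 mice) and after 6 h at 5 °C (KO5, 7 mice). All mice had first spent 2 weeks at thermoneutrality, or 14 to 18 days in the study's methods. The temperature is given as 30 °C in the sample labels and as 29 °C in the methods. Adiponectin-Cre acts in the adipocytes of every fat depot, so white fat was targeted as well, and the other cell types of BAT keep the gene. Whether the control littermates carried the floxed alleles is not given in the sources used here.

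In this pathway citrate leaves the mitochondria and is cleaved by ATP citrate lyase (Acly) to cytosolic acetyl-CoA, which acetyl-CoA synthetase (Acss2) can also make from acetate. Acetyl-CoA carboxylase forms malonyl-CoA, and fatty acid synthase (Fasn) builds palmitate from it with NADPH, part of which comes from malic enzyme (Me1). Stearoyl-CoA desaturases (Scd1, Scd2) then introduce a double bond. SREBP-1 (Srebf1), a factor driven by insulin, and ChREBP (Mlxipl), a factor driven by glucose, control transcription of these enzymes, and brown fat is known for high rates of the pathway and for burning fatty acids in the cold.

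Total counts per library ran from 12705969 to 25732258. Levels are given below as CPM, counts per 1000000 of the TMM-scaled library. Afdn, the targeted gene, did not separate the labels at thermoneutrality, where it lay between 151.5 and 213.7 CPM in control mice and between 153.5 and 230.5 CPM in mice labelled KO. After cold the groups did not overlap, with 67.9 to 79.2 CPM in control mice and 53.3 to 65.3 CPM in mice labelled KO. The log2 fold change of Afdn after cold was -0.33 (SE 0.09, adjusted p = 0.116, edgeR). Since Afdn counts gave no difference at thermoneutrality, these animals are called mice labelled KO throughout. The counts cover all exons and all cell types of the tissue, so they do not measure loss of the floxed stretch in adipocytes. At the protein level the paper reports a smaller rise of Afadin after cold in BAT of the knockout mice than in control littermates. The paper also compares Afadin protein between knockout and control BAT at thermoneutrality, in a supplementary figure. The direction and size of that comparison are not given in the paper's text, so they are not repeated here. Markers of brown adipocytes were all detected. Ucp1, which makes heat from the proton gradient, had a mean of 985 CPM in control mice at thermoneutrality and of 16005 CPM after cold. Its means in mice labelled KO were 811 and 16429 CPM. The 6 brown adipocyte markers did not move together, with 3 higher and 2 lower after cold in each label (adjusted p below 0.05, edgeR). The mean of Prdm16, for example, went from 25.3 CPM in WT30 to 16.0 CPM in WT5. Skeletal muscle RNA varied within every group. The 8 muscle markers summed to between 50.4 and 5762 CPM in WT30, 47.6 and 1620 CPM in KO30, 31.3 and 4992 CPM in WT5, and 28.3 and 7784 CPM in KO5.

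The promoter windows of 8 of the 10 genes were read from RefSeq on the mouse build GRCm38.p6, the same assembly as the mm10 build of the counts. There are 12 windows, each of 300 bases, from 250 bases before an annotated start to 50 after it. Scd1 and Scd2 have no window in the table used. The motifs of 4 factors known at lipogenic promoters were searched on both strands. The letters TCACNCCAC (sterol response element, for SREBP) stood in 1.24% of all 32851 promoter windows and in 1 of the 12. The E-box CACGTG stood in 7.15% of all windows and in 1 of the 12, again at Mlxipl. CCAAT (for NF-Y) stood in 37.4% of all windows and in 8 of the 12, covering 7 of the 8 genes. GGGCGG (for Sp1) stood in 35.7% of all windows and in 6 of the 12, covering 5 of the 8 genes. The Acaca window, at a start within the annotated gene, held none of the 4 motifs. The windows of 4 enzymes whose mRNA fell after cold in both labels follow first, that of Acaca included, then the Srebf1 window of the start farthest downstream and the Mlxipl window, the only one of the 12 with the sterol response element. Each is written 5′ to 3′ on the strand of its gene, and capitals mark a motif or its reverse complement.
Acaca, chr11:84195188-84195487, plus strand: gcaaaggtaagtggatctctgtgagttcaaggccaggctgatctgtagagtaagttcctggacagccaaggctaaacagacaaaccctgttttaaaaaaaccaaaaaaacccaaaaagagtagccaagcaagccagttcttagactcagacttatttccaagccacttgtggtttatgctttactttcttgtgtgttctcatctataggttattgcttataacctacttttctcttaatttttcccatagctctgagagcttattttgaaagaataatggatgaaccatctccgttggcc
Fasn, chr11:120824498-120824797, minus strand: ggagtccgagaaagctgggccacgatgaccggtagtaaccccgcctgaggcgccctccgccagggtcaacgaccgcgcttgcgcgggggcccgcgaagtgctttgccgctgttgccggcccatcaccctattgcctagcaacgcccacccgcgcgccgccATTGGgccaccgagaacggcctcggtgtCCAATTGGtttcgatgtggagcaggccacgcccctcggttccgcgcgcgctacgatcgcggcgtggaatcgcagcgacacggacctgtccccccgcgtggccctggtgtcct
Acly, chr11:100527951-100528250, minus strand: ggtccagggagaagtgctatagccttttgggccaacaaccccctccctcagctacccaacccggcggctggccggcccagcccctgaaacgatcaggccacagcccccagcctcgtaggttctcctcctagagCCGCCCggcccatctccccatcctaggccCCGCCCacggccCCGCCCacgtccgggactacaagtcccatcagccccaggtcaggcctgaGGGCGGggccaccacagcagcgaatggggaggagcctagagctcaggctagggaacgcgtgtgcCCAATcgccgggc
Acss2, chr2:155517793-155518092, plus strand: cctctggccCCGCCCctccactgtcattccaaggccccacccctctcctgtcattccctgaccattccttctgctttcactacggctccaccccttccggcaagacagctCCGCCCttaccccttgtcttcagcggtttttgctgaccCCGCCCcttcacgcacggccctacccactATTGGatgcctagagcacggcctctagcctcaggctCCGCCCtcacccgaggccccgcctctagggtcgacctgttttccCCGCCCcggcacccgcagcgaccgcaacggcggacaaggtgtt
Srebf1, chr11:60210422-60210721, minus strand: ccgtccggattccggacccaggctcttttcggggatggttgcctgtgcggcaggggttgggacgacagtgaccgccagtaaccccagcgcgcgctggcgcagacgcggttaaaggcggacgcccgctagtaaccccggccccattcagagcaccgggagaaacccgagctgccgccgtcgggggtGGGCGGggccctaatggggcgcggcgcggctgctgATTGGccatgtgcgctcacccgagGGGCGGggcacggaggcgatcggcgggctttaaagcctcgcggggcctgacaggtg
Mlxipl, chr5:135106641-135106940, plus strand: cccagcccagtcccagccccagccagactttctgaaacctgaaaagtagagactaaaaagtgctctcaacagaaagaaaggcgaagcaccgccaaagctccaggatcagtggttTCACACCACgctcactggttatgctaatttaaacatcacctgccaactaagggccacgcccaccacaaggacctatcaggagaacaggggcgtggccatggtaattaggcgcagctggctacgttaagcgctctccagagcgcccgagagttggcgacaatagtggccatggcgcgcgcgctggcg
The Fasn window holds 3 CCAAT matches, 2 of which overlap in the run CCAATTGG. The Acly window has 1 CCAAT and 4 GGGCGG matches, Acss2 has 1 and 5, and this Srebf1 window has 1 and 2. The letters describe these windows and say nothing of which factor was bound in the tissue.

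Most of the pathway fell in the cold. In control mice 9 of the 10 genes fell after 6 h at 5 °C and Me1 did not pass the test, against 33.4% of all tested genes that fell and 31.6% that rose (edgeR's quasi-likelihood test, adjusted p below 0.05). In mice labelled KO 7 of the 10 fell, and Acacb, Scd1 and Me1 did not pass, against 34.9% of all genes that fell and 33.7% that rose. The median log2 fold change of the 10 genes was -2.05 in control mice and -1.33 in mice labelled KO, where that of all tested genes was -0.01 and -0.03. For 7 genes every cold-exposed control mouse lay below every control mouse at thermoneutrality, a pattern found in 22.9% of all genes. The same held for 7 genes in mice labelled KO, against 19.3% of all genes. The 7 were Acaca, Fasn, Acly, Scd2, Srebf1, Mlxipl and Acss2 in both labels. In whole tissue, fewer cells of a type and less RNA per cell cannot be told apart. Of the other marker lists, all 5 red blood cell markers rose after cold in mice labelled KO and none passed in control mice. Their summed level ran from 288.8 to 608.6 CPM in KO30 and from 517 to 1497 CPM in KO5, and from 233 to 1120 CPM in WT30 and 417 to 684 CPM in WT5. Their part in the cold response was not tested. The white adipocyte marker Lep, encoding leptin, had a mean of 254 CPM in WT30 and 5.25 CPM in WT5, and 273.5 CPM in KO30 and 13.3 CPM in KO5, and its part was likewise not tested. The summed endothelial markers ran from 426 to 556 CPM in WT30 and 696 to 804 CPM in WT5, and from 495 to 647 CPM in KO30 and 600.2 to 825 CPM in KO5, with 3 of 5 higher and 2 lower after cold in each label. The Schwann cell and nerve markers summed to 87.4 to 123 CPM in WT30 and 53.2 to 74.0 CPM in WT5, and to 79.3 to 97.1 CPM in KO30 and 52.1 to 72.7 CPM in KO5, with 2 of 6 lower in control mice, 3 of 6 lower in mice labelled KO and 0 higher in either. The 6 adipocyte markers split, with 2 higher and 2 lower in control mice and 3 higher and 3 lower in mice labelled KO. Of 6 macrophage markers 1 rose and 3 fell in control mice, and 3 rose and 2 fell in mice labelled KO. Of 5 tested lymphocyte markers 2 fell in each label. The 4 fibroblast and preadipocyte markers gave 1 lower and 0 higher in control mice, and 1 higher and 0 lower in mice labelled KO. The 8 skeletal muscle markers passed in neither label. The part of these lists in the result was not tested either.

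**Figure D1:**
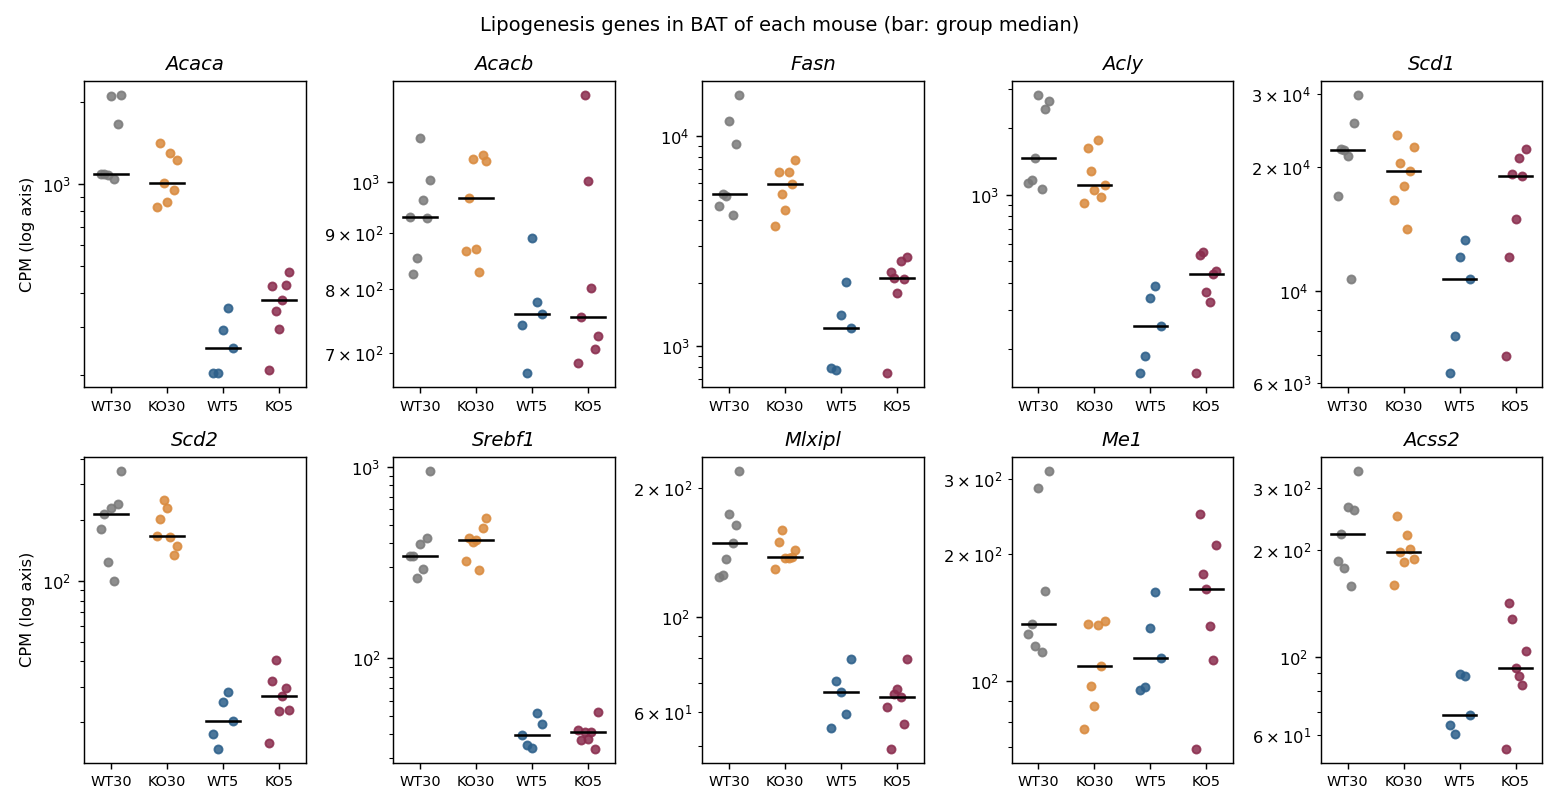
Level of each lipogenesis gene in BAT of every mouse, in CPM on a log axis, for the 4 groups, with a bar at the group median. Srebf1, Scd2, Acly, Acaca, Fasn, Mlxipl and Acss2 lie lower in all cold-exposed mice than in all mice of the same label at thermoneutrality, whereas Acacb, Scd1 and Me1 overlap.

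Srebf1, the gene of SREBP-1, had the largest fitted fall of the 10 in both labels with all mice included, in control mice close to that of Scd2. In control mice at thermoneutrality it ran from 261 to 956.5 CPM with a median of 344, and after cold the 5 control mice had 39.9, 35.04, 34.03, 52.1 and 45.4 CPM. The cold level was thus 9.58% of the thermoneutral one (log2 fold change -3.38, SE 0.26, adjusted p = 1.04e-11, edgeR). Control mouse 7 was far above the other 6 controls at thermoneutrality. Without it the value was -3.08 for Srebf1 and -3.11 for Scd2, so the order of these genes turned in control mice. Srebf1 in mice labelled KO ran from 288 to 541 CPM (median 416) at thermoneutrality and from 33.6 to 52.2 CPM (median 41.3) in the cold (log2 fold change -3.33, SE 0.23, adjusted p = 7.26e-13, edgeR). The cold-exposed mice of both labels thus lay in nearly the same range.

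Mlxipl, the gene of ChREBP, also fell in both labels, with smaller values. Control mice had 124 to 219 CPM (median 148) at thermoneutrality and 55.0, 70.9, 66.8, 59.3 and 79.9 CPM after cold. The log2 fold change was -1.23 (SE 0.13, adjusted p = 2.98e-09, edgeR). Mice labelled KO had 129.0 to 159 CPM (median 138) and then 49.2 to 79.7 CPM (median 65.0) (log2 fold change -1.16, SE 0.11, adjusted p = 9.55e-10, edgeR). The ranges of the labels overlapped at each temperature. Of the exonic bases of Mlxipl, 4.24% lie opposite the antisense gene Gm43500, and 1.93% of those of Srebf1 opposite Rai1. Whether the counting used the strand is not given in the sources used here, so reads from these stretches cannot be assigned with certainty.

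Acly, the main source of cytosolic acetyl-CoA, fell in both labels. It ran from 1055 to 2818 CPM (median 1457) in control mice at thermoneutrality, and after cold the values were 157, 186, 340.4, 386 and 256 CPM. The log2 fold change was -2.78 (SE 0.32, adjusted p = 2.73e-08, edgeR), a cold level of 14.6%. For mice labelled KO the range moved from 916 to 1770 CPM (median 1108) down to 156 to 547 CPM (median 437.0) (log2 fold change -1.63, SE 0.27, adjusted p = 7.44e-06, edgeR) and a cold level of 32.3%. In both labels the thermoneutral and cold mice did not overlap.

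Acss2, which uses acetate, ran from 158 to 335 CPM (median 222) in control mice at thermoneutrality and gave 64.2, 60.7, 89.4, 88.0 and 68.4 CPM in the cold. It fell by 1.63 on the log2 scale (SE 0.20, adjusted p = 4.76e-08, edgeR). Mice labelled KO went from 159.9 to 249.9 CPM (median 198) to 54.9 to 142 CPM (median 93.1), and Acss2 fell by 1.02 (SE 0.17, adjusted p = 8.23e-06, edgeR). Exons of Gss, Acss2os and Ggt7 on the opposite strand cover 3.89%, 3.3% and 1.94% of its exonic bases.

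Me1, the cytosolic malic enzyme, was the member with no call in either label. Control mice had 117 to 314 CPM (median 136) at thermoneutrality and 95.4, 96.7, 133.5, 162.5 and 113 CPM after cold, with overlap (log2 fold change -0.59, SE 0.27, adjusted p = 0.0612, edgeR). Mice labelled KO had 77.0 to 139 CPM (median 108.5) and then 69.3 to 248.5 CPM (median 165), and 6 of the 7 cold-exposed mice were above the thermoneutral mean (log2 fold change 0.52, SE 0.25, adjusted p = 0.0652, edgeR). The lowest of these cold values belonged to mouse 22. Without mouse 22 the log2 fold change in mice labelled KO was 0.65 (adjusted p = 0.0156, edgeR), and without mouse 27 it was 0.59 (adjusted p = 0.0432, edgeR). In control mice the fall passed the threshold when mouse 1, 2, 3, 5 or 19 was left out, reaching -0.72 (adjusted p = 0.0363, edgeR) without mouse 19. Pseudogenes match 12.3% of the 100-base windows of Me1 transcripts exactly, 10% in Gm7049 alone, so its counts are uncertain to that extent.

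Acetyl-CoA carboxylase is made from a pair of genes. Acaca encodes the cytosolic enzyme that feeds fatty acid synthesis, and Acacb the enzyme at the mitochondrial surface whose malonyl-CoA restrains fatty acid import. Acaca ran from 1042 to 2120 CPM (median 1087) in control mice at thermoneutrality, and the cold-exposed controls had 204, 204.5, 294, 352 and 252 CPM. It fell by 2.48 on the log2 scale (SE 0.23, adjusted p = 4.83e-10, edgeR). In mice labelled KO it went from 823 to 1410 CPM (median 1014) to 210 to 478 CPM (median 378) and fell by 1.57 (SE 0.20, adjusted p = 8.62e-08, edgeR). The processed pseudogene Gm5182 holds 23.6% of the 100-base windows of Acaca transcripts, so part of the reads of these 2 genes cannot be told apart, and how reads with several matches were counted is not given in the sources used here.

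Acacb had the smallest values of the pathway in both labels. Control mice had 826 to 1097 CPM (median 930) at thermoneutrality and 743, 672, 889.9, 778 and 760 CPM in the cold, which overlap. The log2 fold change was -0.30 (SE 0.12, adjusted p = 0.0272, edgeR), and it missed the threshold without mouse 4 (adjusted p = 0.0594, edgeR), mouse 16 (adjusted p = 0.0540, edgeR) or mouse 17 (adjusted p = 0.0810, edgeR). In mice labelled KO, Acacb had 828.5 to 1057 CPM (median 967) and then 685.5 to 1199 CPM (median 754.5) (log2 fold change -0.19, SE 0.10, adjusted p = 0.117, edgeR). Without mouse 24, which held the highest cold value, that change was -0.30 (adjusted p = 0.00418, edgeR), and without mouse 25 it was -0.24 (adjusted p = 0.0470, edgeR).

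Fasn, the synthase itself, was spread widely at thermoneutrality, from 4216 to 15736 CPM (median 5301) in control mice. After cold the controls had 785, 774.5, 1409, 2023 and 1217 CPM, all below the lowest thermoneutral value. The log2 fold change was -2.69 (SE 0.35, adjusted p = 1.97e-07, edgeR). Mice labelled KO went from 3727 to 7693 CPM (median 5901) to 745 to 2664 CPM (median 2116) (log2 fold change -1.51, SE 0.30, adjusted p = 6.49e-05, edgeR), also with no overlap. The cold level was 15.5% of the thermoneutral one in control mice and 35.1% in mice labelled KO.

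Scd1, the main adipose form, ran from 10704 to 29821 CPM (median 21955) in control mice at thermoneutrality and gave 6332, 7795, 12063, 13323 and 10725 CPM in the cold. It fell by 1.08 on the log2 scale in these mice (SE 0.25, adjusted p = 0.000423, edgeR) with some overlap. Among mice labelled KO it ran from 14115 to 23874 CPM (median 19548) and then from 6952 to 22130 CPM (median 19035), which did not pass (log2 fold change -0.23, SE 0.22, adjusted p = 0.365, edgeR). With library size alone as the scaling this value was -0.54 (adjusted p = 0.0411, edgeR), while the median of all genes in that comparison moved from -0.03 to -0.34.

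Scd2 was much lower and fell steeply in both labels. Control mice had 100.1 to 351 CPM (median 213) at thermoneutrality and 17.5, 14.8, 25.1, 28.1 and 20.4 CPM in the cold (log2 fold change -3.28, SE 0.28, adjusted p = 7.87e-11, edgeR). Mice labelled KO went from 134 to 251 CPM (median 166) to 15.8 to 40.7 CPM (median 26.9) (log2 fold change -2.77, SE 0.24, adjusted p = 7.78e-11, edgeR). The thermoneutral and cold groups did not overlap in either label. Both genes lie on chromosome 19, Scd2 at bases 44293674 to 44306864 and Scd1 at bases 44394455 to 44407879. Other genes match 2.58% of the 100-base windows of Scd1 and 0.879% of those of Scd2.

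**Figure D2:**
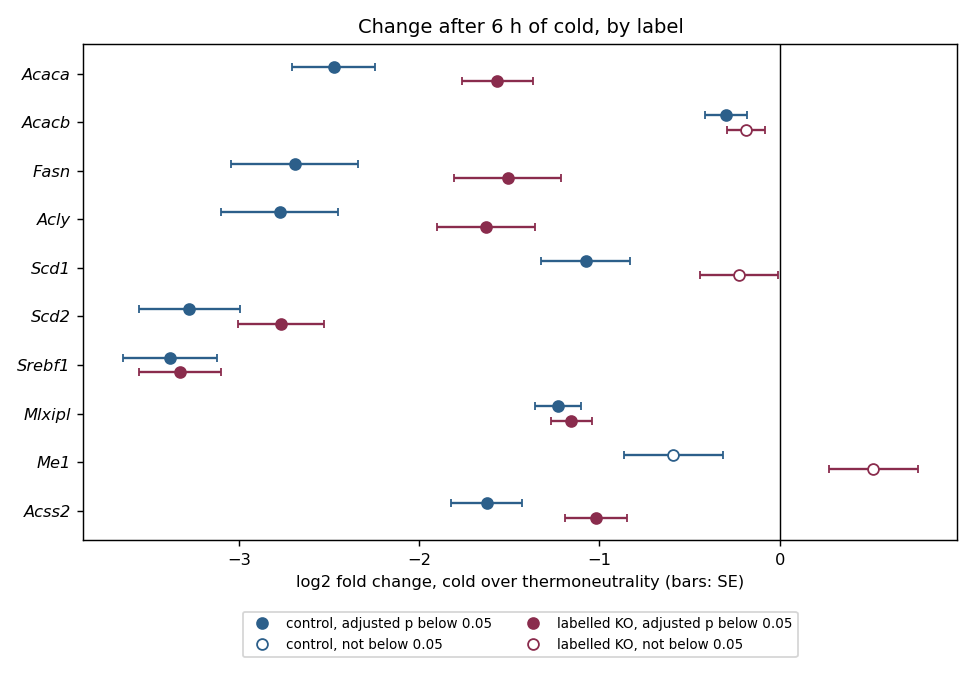
Log2 fold change of each gene after 6 h of cold over thermoneutrality, with its SE, for control mice and for mice labelled KO. Filled points had an adjusted p below 0.05 in edgeR: all but Me1 in control mice, and all but Acacb, Scd1 and Me1 in mice labelled KO.

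Levels of different genes were set side by side per kilobase of all annotated exons merged, which can be longer than the transcripts present. The merged length was 17074 bases for Acaca, 9632 for Acacb and 10163 for Acss2, so places in the order depend on it. By this measure Scd1 was the highest of the 10 in control mice at thermoneutrality, with 4332 ± 1244 CPM per kb (SD, n = 7). Fasn followed with 733 ± 403 and Acly with 344 ± 148 (SD, n = 7). Acacb (97.9 ± 9.49), Acaca (85.1 ± 29.1) and Srebf1 (76.5 ± 42.3) came next and lay within 1 SD of each other, followed by Me1 (47.1 ± 21.5), Scd2 (37.6 ± 15.2), Mlxipl (28.1 ± 6.08) and Acss2 (22.5 ± 6.10), all in CPM per kb (SD, n = 7), of which each neighbour in the order was also within the spread. After cold the order of the controls was Scd1 (2054 ± 597), Fasn (113 ± 47.1), Acacb (79.8 ± 8.21), Acly (50.2 ± 18.5), Me1 (31.3 ± 7.33), Acaca (15.3 ± 3.69), Mlxipl (12.0 ± 1.76), Srebf1 (7.33 ± 1.34), Acss2 (7.29 ± 1.34) and Scd2 (3.88 ± 0.997), in CPM per kb (SD, n = 5). Acacb thus stood above Acly and Acaca below Me1, while Srebf1 and Acss2 did not differ beyond their spread. In mice labelled KO the highest were again Scd1 (3937 ± 685), Fasn (529 ± 128) and Acly (236 ± 62.5) at thermoneutrality (SD, n = 7), and Scd1 (3368 ± 1114), Fasn (186 ± 58.3) and Acacb (87.1 ± 19.8) after cold, in CPM per kb (SD, n = 7). The lowest was Acss2 (19.7 ± 2.79) before and Scd2 (4.98 ± 1.46) after cold (SD, n = 7).

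Ratios within a mouse show these shifts without reference to the rest of the library. The log2 ratio of Acaca to Acacb, both in CPM per kb, ran from -0.71 to 0.25 (median -0.43) in WT30 and from -0.97 to -0.18 (median -0.84) in KO30. After cold it ran from -2.69 to -1.97 (median -2.42) in WT5 and from -2.63 to -1.43 (median -1.91) in KO5. Acacb was the more abundant carboxylase mRNA in every cold-exposed mouse, per kb and in CPM. Per kb it was 5.37 times Acaca at the median of the controls and 3.76 times at that of the mice labelled KO. These sizes depend on the merged lengths and on the reads that Acaca shares with Gm5182. In CPM the medians of Acacb and Acaca were 760 and 252 in WT5 and 754.5 and 378 in KO5.

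The log2 ratio of Srebf1 to Mlxipl changed sign. It was positive in all 14 mice at thermoneutrality, with 0.91 to 2.10 (median 1.36) in WT30 and 1.05 to 1.89 (median 1.48) in KO30. It was negative in all 12 cold-exposed mice, with -1.04 to -0.21 (median -0.84) in WT5 and -0.86 to -0.41 (median -0.68) in KO5. Scd1 exceeded Scd2 in every mouse, by a log2 ratio of 6.57 to 7.64 in WT30, 6.45 to 7.38 in KO30, 8.66 to 9.20 in WT5 and 8.72 to 10.08 in KO5. The Scd pair therefore drew apart in the cold in both labels.

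**Figure D3:**
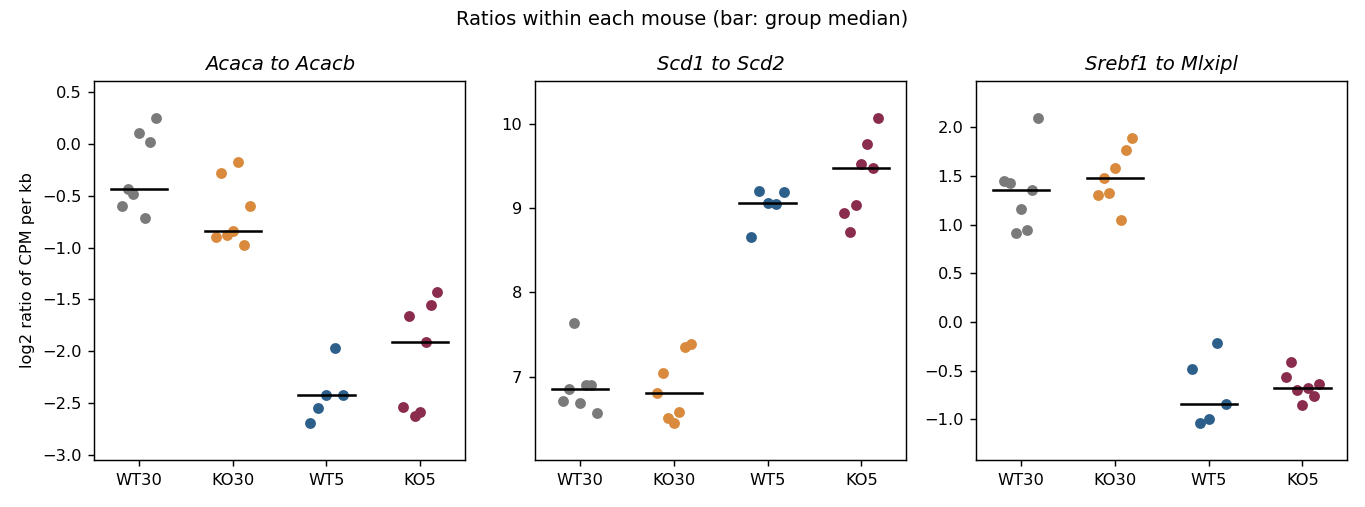
Log2 ratio of the levels per kb of Acaca to Acacb, Scd1 to Scd2 and Srebf1 to Mlxipl in each mouse, by group, with a bar at the group median. The Srebf1 to Mlxipl ratio is above 0 in all thermoneutral mice and below 0 in all cold-exposed mice.

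The effect of the label was compared within each temperature. At thermoneutrality none of the 10 genes passed in mice labelled KO against control mice by edgeR or by DESeq2, where edgeR called 0.081% of all genes (14) and DESeq2 0.278% (48). Without mouse 7, a control at thermoneutrality, edgeR called 93 genes in all and again none of the 10. At an unadjusted p below 0.05 there were 2 of the 10, Acaca and Me1, against 7.65% of all genes. No member separated the groups without overlap, which 0.249% of all genes did. The log2 fold change was negative for 9 of the 10 genes, with a median of -0.17 against -0.02 over all genes. Me1 had the largest, -0.70 (SE 0.25, unadjusted p = 0.00915, adjusted p = 0.442, edgeR), and 0 of the 7 mice labelled KO exceeded the mean of the controls. Acly (-0.54, SE 0.27), Fasn (-0.47, SE 0.29) and Acaca (-0.42, SE 0.19) followed, with adjusted p of 0.653, 0.752 and 0.611 (edgeR). The controls include mouse 7, whose level was the highest of all 26 mice for every member but Acacb and Acly. Without it the median of the members was -0.04, Fasn was -0.20, Me1 was -0.50, and Srebf1 turned from -0.07 to 0.27 (adjusted p = 0.459, edgeR).

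After cold the order was the other way for most enzymes, again with none of the 10 passing by edgeR or by DESeq2, where edgeR called 0.139% of all genes (24) and DESeq2 1.14% (197). Without mouse 22, labelled KO, edgeR called 100 genes in all and none of the 10. At an unadjusted p below 0.05 there were 4 of the 10, Acaca, Fasn, Scd1 and Acss2, against 13.4% of all genes. All members overlapped between the labels, which were apart for 1.11% of all genes. Of the log2 fold changes 8 were positive, and the median was 0.41 against 0.02 over all genes. Scd1 and Fasn had the largest, 0.71 each (SE 0.24 and 0.32, adjusted p = 0.204 and 0.335, edgeR), then Acly with 0.60 (SE 0.30, adjusted p = 0.376, edgeR) and Acaca with 0.49 (SE 0.21, adjusted p = 0.318, edgeR). For each of these 4 genes, 6 of the 7 mice labelled KO were above the mean of the control mice. The remaining mouse was always mouse 22. Srebf1 (-0.01, SE 0.23) and Mlxipl (-0.06, SE 0.12) were the 2 with values below 0.

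**Figure D4:**
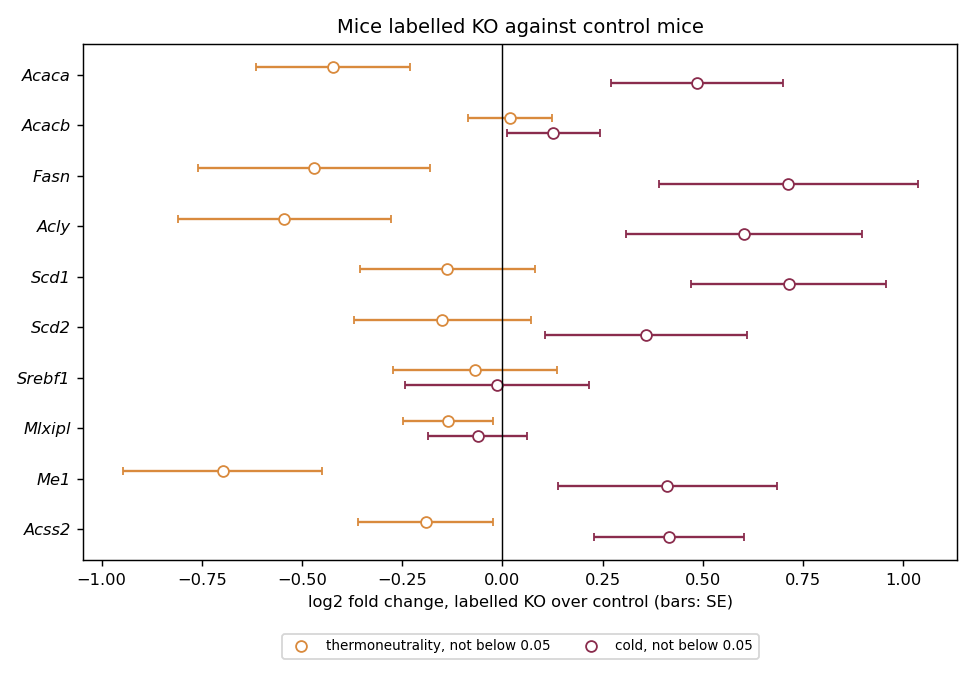
Log2 fold change of each gene in mice labelled KO over control mice, with its SE, at thermoneutrality and after cold. All points are open since no adjusted p was below 0.05 in edgeR. The values of Acaca, Fasn, Acly, Scd1, Scd2, Me1 and Acss2 lie under 0 at thermoneutrality and above 0 after cold.

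The difference of the cold responses, positive where the fall was smaller in mice labelled KO, was tested as an interaction. None of the 10 genes passed in edgeR, which called 1.16% of all genes (200), and 6 had an unadjusted p below 0.05 against 16.2% of all genes. All 10 values were positive, with a median of 0.73 against 0.04 over all genes. The 6 were Acaca (0.91, SE 0.29, adjusted p = 0.115), Fasn (1.18, SE 0.43, adjusted p = 0.171), Acly (1.15, SE 0.40, adjusted p = 0.148), Me1 (1.11, SE 0.37, adjusted p = 0.132), Scd1 (0.85, SE 0.33, adjusted p = 0.188) and Acss2 (0.61, SE 0.25, adjusted p = 0.228), all from edgeR. DESeq2 called 1 of the 10, Acaca, with a difference of 0.93 (adjusted p = 0.0430), where it called 2.82% of all genes (488). Scd2 had 0.51 (SE 0.33), and Acacb (0.11, SE 0.16), Mlxipl (0.07, SE 0.17) and Srebf1 (0.06, SE 0.31) had the lowest. These differences share the groups of the comparisons above and are not further evidence. The signs of the values for Acacb, Srebf1 and Mlxipl turned with library size alone as the scaling (-0.11, -0.06 and -0.09), where the median of all genes was -0.15.

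The members were also compared from mouse to mouse. Deviations of log2 CPM from the group means were correlated over the 26 mice, which share library and scaling within a mouse. Over all mice the 45 pairs were positive, with a median Pearson r of 0.56. It was 0.47 when for each pair the 2 mice farthest from the median of the first gene of the pair were left out. Within single groups the median was 0.82 in WT30, 0.37 in KO30, 0.79 in WT5 and 0.50 in KO5, and 1, 8, 8 and 8 of the pairs were negative, the lowest being Acly and Srebf1 in KO30 (-0.37) and Scd2 and Srebf1 in KO5 (-0.32). The closest were Acaca and Fasn (r = 0.95), and 9 pairs exceeded 0.8. Fasn followed Me1 (0.89), Acly (0.88), Acss2 (0.83) and Scd1 (0.78) more closely than Srebf1 (0.58), Mlxipl (0.48) or Acacb (0.38). Among the 7 mice of KO5, where Fasn covered 745 to 2664 CPM, the r of Fasn with Srebf1 was 0.07, and with Acaca 0.92. Among the 7 control mice at thermoneutrality, Fasn and Srebf1 gave 0.84. The lowest of the pairs over all mice, Acaca and Acacb, had 0.23, and 0.09 without the 2 farthest mice. Scd2 and Srebf1 went from 0.48 to 0.16 in the same step.

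A pair of mice carried much of this spread. Control mouse 7 at thermoneutrality lay above its group in all 10 genes, by 1.28 for Srebf1 and 1.15 for Fasn on the log2 scale. Mouse 22, labelled KO and exposed to cold, lay below its group by 1.36 for Fasn, 1.27 for Acly, 1.16 for Scd1 and 1.10 for Me1, while its Srebf1 and Mlxipl differed from the group mean by 0.06 and -0.04. When the pair was left out together, a choice made after the data were seen, Scd1 was higher after cold in mice labelled KO than in control mice (0.86, adjusted p = 0.0379, edgeR), the only one of the 10 called in a comparison of the labels in that fit. The summed level of skeletal muscle markers had an r of 0.15 with the mean deviation of the members over the 26 mice, that of white adipocyte markers -0.34, and that of fibroblast and preadipocyte markers 0.46. Within single groups of 5 to 7 mice several values were larger, and signs differed between groups. Muscle markers gave 0.79 in WT30 and -0.50 in WT5, and white adipocyte markers gave 0.81 in WT30, 0.18 in KO30, -0.92 in WT5 and -0.73 in KO5. The white adipocyte sum held only 2 genes, Lep and Nnat. Their means were 254 and 46.2 CPM in WT30, and 5.25 and 29.9 CPM in WT5. Lep was thus the larger part of the sum at thermoneutrality and Nnat after cold, in both labels, so these values compare different genes. Lymphocyte markers, which summed to only 2.57 to 6.70 CPM in WT30, gave -0.89 in WT30, -0.43 in KO30, 0.66 in WT5 and 0.03 in KO5. Red blood cell markers gave 0.46 in WT30, -0.92 in KO30, -0.40 in WT5 and -0.18 in KO5. Over the 26 mice the adipocyte markers gave 0.27 and the brown adipocyte markers -0.11. The part of these lists was not tested beyond these values.

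**Figure D5:**
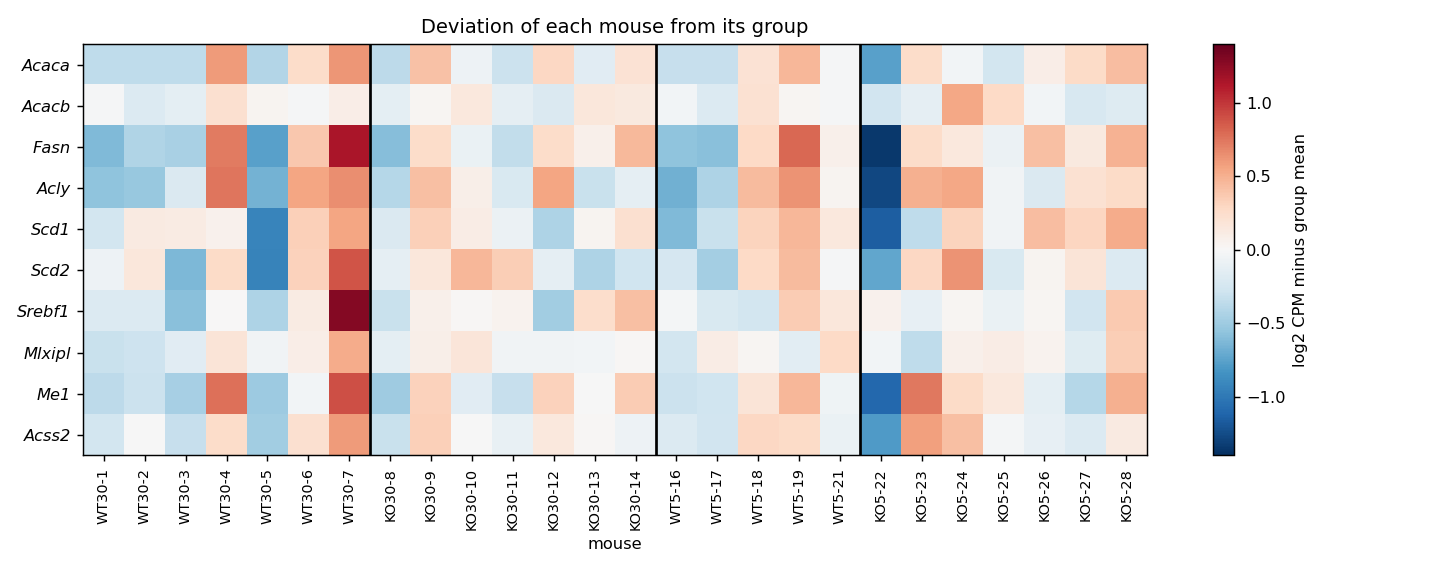
Deviation of each mouse from the mean of its group in log2 CPM, with 1 column per mouse, 1 row per gene and vertical lines between groups. Control mouse 7 at thermoneutrality is above its group in all rows, and mouse 22 of KO5 is low in the enzyme rows but near 0 for Srebf1 and Mlxipl.

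Other genes of the pathway were taken from lists, whose counts stand beside the shares of all genes given above for cold, 33.4% lower and 31.6% higher in control mice and 34.9% and 33.7% in mice labelled KO. Nothing is read from a count near these shares. Of 14 regulators of SREBP and ChREBP, 4 rose and 5 fell after cold in control mice, and 5 rose and 3 fell in mice labelled KO, with median log2 fold changes of 0.07 and 0.07. Thrsp, a lipogenic cofactor, fell in both (log2 fold changes -2.79 and -2.17, SE 0.23 and 0.20, control mice given first here and below). Insig1, which retains SREBP in the endoplasmic reticulum, fell as well (-1.97 and -1.33, SE 0.19 and 0.16). Nr1h3, the liver X receptor alpha, rose by 0.73 and 0.77 (SE 0.12 and 0.11), so this list had no common direction. Mbtps1, the site-1 protease, fell in control mice (-0.12, SE 0.05) and had -0.09 (SE 0.05) in mice labelled KO.

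Of 11 genes of NADPH supply, 8 fell and 0 rose after cold in control mice, and 2 fell and 3 rose in mice labelled KO. The median log2 fold changes were -0.34 and 0.00. Tkt, the transketolase of the pentose phosphate pathway, fell in both (log2 fold changes -1.67 and -0.63, SE 0.21 and 0.18). Cytosolic isocitrate dehydrogenase Idh1 also fell (-1.22 and -0.85, SE 0.10 and 0.09). Taldo1 fell in control mice (-0.40, SE 0.13) and had 0.14 (SE 0.12) in mice labelled KO, and G6pdx had 0.03 (SE 0.11) in control mice and rose by 0.45 (SE 0.10) in mice labelled KO. The difference of the cold responses was above 0 for all 11, with a median of 0.37 against 0.04 over all genes. An unadjusted p below 0.05 was found for 5 of them, against 16.2% of all genes. Most genes of every other list were above 0 too, with counts given below.

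Of 12 genes of citrate and pyruvate supply, 4 rose and 3 fell in control mice, and 7 rose and 1 fell in mice labelled KO, with medians of 0.03 and 0.37. Citrate synthase (Cs) rose by 0.18 and 0.28 (SE 0.07 and 0.06). Pdha1, a subunit of pyruvate dehydrogenase, fell in control mice (-0.36, SE 0.09) and had 0.07 (SE 0.08) in mice labelled KO. Pyruvate carboxylase (Pcx) passed in neither label, with -0.21 (SE 0.13) in control mice and 0.10 (SE 0.12) in mice labelled KO.

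Genes of elongation and desaturation moved in both directions. Of 16 tested genes of 17 listed, 8 rose and 6 fell in control mice, and 9 rose and 4 fell in mice labelled KO, with medians of 0.18 and 0.59. Elovl3, an elongase of very long chains, had a mean of 0.572 CPM in WT30 and 203 CPM in WT5, and of 1.04 CPM in KO30 and 272 CPM in KO5. Hacd2 and Hsd17b12, which act in the elongation cycle, rose by 2.68 and 1.54 in control mice and by 2.71 and 1.68 in mice labelled KO. Elovl6, which lengthens the palmitate that Fasn makes, had 0.04 (SE 0.17) in control mice and rose by 0.59 (SE 0.15) in mice labelled KO.

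Malonyl-CoA turnover and AMPK genes split as well, with 4 of 12 higher and 6 lower in control mice and 4 higher and 4 lower in mice labelled KO (medians -0.26 and 0.12). Mlycd, which degrades malonyl-CoA, rose by 1.19 and 1.58 (SE 0.14 and 0.13), and the AMPK subunit Prkag2 fell (-1.95 and -1.88, SE 0.15 and 0.13). Prkaa1 rose by 0.45 and 0.47, and Stk11, an upstream kinase, fell slightly (-0.24 and -0.18). Of 6 tested ChREBP targets of 7 listed, 2 rose and 2 fell in each label, with medians of -0.19 and 0.07. Pnpla3, a lipid droplet protein, fell (-2.74 and -2.36, SE 0.26 and 0.23), Gpd1 rose by 0.32 and 0.56 and Tmem37 by 1.32 and 1.38. Txnip, a sensor of glucose use, passed in neither label (-0.18, SE 0.33, and 0.30, SE 0.30).

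Genes of cholesterol synthesis, controlled by SREBP-2, had no common direction. Of 10 listed, 4 rose and 5 fell in control mice and 4 rose and 4 fell in mice labelled KO, with medians of -0.54 and -0.22. Squalene synthase (Fdft1) fell (-3.26 and -2.46, SE 0.18 and 0.15). Hmgcs1 rose by 0.88 and 0.84 and Lss by 0.28 and 0.52. Over the 81 tested genes of all these lists, edgeR called 0 between the labels at either temperature, with 8 at an unadjusted p below 0.05 at thermoneutrality (7.65% of all genes) and 21 after cold (13.4% of all genes). DESeq2 called 0 at thermoneutrality and 2 after cold, Fdft1 and Tkt, against 1.14% of all genes after cold. For the difference of the cold responses edgeR called 0 of the 81. At an unadjusted p below 0.05 there were 20, against 16.2% of all genes. DESeq2 called 6, Cpt1a, Fdft1, Pdha1, Pdhb, Tecr and Tkt, against 2.82% of all genes. This difference was above 0 for all 12 genes of citrate and pyruvate supply and all 12 of malonyl-CoA turnover and AMPK. It was also above 0 for all 6 tested ChREBP targets and 11 of 14 regulators of SREBP and ChREBP. Above 0 were likewise 12 of 16 elongation and desaturation genes and 8 of 10 genes of cholesterol synthesis. The medians of these lists, in this order, were 0.29, 0.18, 0.31, 0.06, 0.155 and 0.29.

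The genes whose level followed the members most closely from mouse to mouse were sought among 14236 other tested genes. The measure was the Pearson correlation over 26 mice of deviations from the group means with the mean scaled deviation of the 10 members, and 12 genes reached 0.8. Slc25a1, the mitochondrial citrate carrier, came first (r = 0.92), followed by Nsdhl of sterol synthesis (0.91), Tkt (0.88), Pnpla3 (0.87), Pgd of the pentose phosphate pathway (0.85), Lss (0.84), Gm5182 (0.84), Pcx (0.82), Dbi (0.82) and Tecr (0.81). Gm5182 is the pseudogene that shares sequence with Acaca, so its place is not separate from that of Acaca. Slc25a1 fell by 1.60 after cold in control mice (adjusted p = 4.56e-05, edgeR) and had -0.54 in mice labelled KO (adjusted p = 0.0731, edgeR). The lowest values belonged to Eid1 (-0.76), Nfxl1 (-0.71), Dnajc7 (-0.71), Smc6 (-0.69) and Icam1 (-0.68). Without the 2 mice whose mean scaled deviation of the members was largest in either direction, the r of Slc25a1 was 0.87 and that of Eid1 -0.63. Thrsp ranked 50 (r = 0.70), Insig1 ranked 209 (0.57) and Srebf2, the gene of SREBP-2, ranked 4074 (0.15).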

How the data were processed

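BAT of 26 male mice was profiled with stranded, rRNA-depleted total RNA libraries read as single ends of 100 bases. The authors used STAR 2.5.2b with mm10 for alignment and featureCounts 1.5.2 with GENCODE M13 for counting, and the deposited values are raw counts per gene. The handling of strand and of reads with several matches is not given in the sources used here. The sample labels gave the groups. The members and the lists were chosen with earlier results of these data known. Symbols, coordinates and lengths of merged exons came from GENCODE M21 on the same assembly.

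Genes were kept with filterByExpr by group, and counts were scaled by TMM. A model with a term for each of the 4 groups was fitted to all mice in edgeR 4.0.16 (R 4.3.3) with the legacy quasi-likelihood method, the one used by the authors' edgeR 3.22.0. P-values were adjusted by Benjamini-Hochberg over all tested genes, with a threshold of 0.05. SE was taken as the fold change over the square root of F. A prior count of 2 was used for log2 CPM. The steps were tested on simulated data. Counts of single mice carry counting error too, which is small at these depths.

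All members were described. From each related list the 4 tested genes with the highest mean CPM were named, except 2 that are not reported here, and the 10 genes most like the members and the 5 least like them were ranked by Pearson correlation of deviations from the group means. The genes named from the DESeq2 calls (Cpt1a, Pdhb) and Lep were chosen after their values were seen. A member was set beside its near copies by counting identical 100-base windows of its transcripts. Alternatives were DESeq2 1.42.0, other scalings and filters, edgeR's robust and revised methods, fits to only the groups compared, exact permutation tests of each member, leaving out each mouse in turn, and leaving out a pair of mice, which was added after seeing the data.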

Additional observations from a re-analysis of the deposited data

Results flagged for a closer look

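Among 48 sets of values examined (the 10 members, Afdn and Ucp1 in each of the 4 groups), 2 held a mouse flagged as far from the rest of its group. This is about the number that chance gives at 1 in 20 for independent sets, but sets of the same group share their mice. Both were in control mouse 7 at thermoneutrality. Its Srebf1 was the highest of the 7 controls at 956.5 CPM, where the other 6 ran from 261 to 425 CPM. Its Afdn was the lowest of the 7 at 151.5 CPM, where the other 6 ran from 194 to 214 CPM. No value of the mice labelled KO or of the cold-exposed controls was flagged. Mouse 22 of KO5 was not flagged although its Fasn was 745 CPM, where the other 6 ran from 1803 to 2664 CPM.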

How the results depend on the processing

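No paired analysis was possible because the 4 groups share no replicate numbers. The number of members called after cold stayed between 8 and 10 in control mice and between 7 and 8 in mice labelled KO when each mouse was left out, and between 9 and 10 and between 7 and 9 under the other settings. Between the labels and for the difference of the cold responses it was 0 in all fits but these: DESeq2 called 1 member for the difference (Acaca, 0.93), and leaving out control mouse 7 and mouse 22 together gave 1 after cold (Scd1, 0.86). Signs turned for members whose values lay near 0. At thermoneutrality the label value of Srebf1 was 0.037 in the exact permutation test and 0.27 without the pair of mice, and that of Scd2 was 0.051 without the pair. After cold it was 0.001 for Srebf1 with RLE factors and with DESeq2. The difference of the cold responses was -0.28 for Srebf1 and -0.021 for Mlxipl without the pair of mice, and -0.11 for Acacb, -0.061 for Srebf1 and -0.093 for Mlxipl with library size alone. Leaving out each mouse in turn, the label values at thermoneutrality ran from -0.012 to 0.058 for Acacb, from -0.27 to 0.052 for Scd2 and from -0.16 to 0.27 for Srebf1. Those after cold ran from -0.081 to 0.084 for Srebf1 and from -0.12 to 0.013 for Mlxipl, and the differences of the cold responses from -0.28 to 0.15 for Srebf1 and from -0.032 to 0.15 for Mlxipl. The causes were not tested. Library size alone moved the median of all genes by more than 0.1, to -0.14 for cold in control mice, -0.34 in mice labelled KO, 0.13 for the label at thermoneutrality and -0.15 for the difference. Relative to it, the members' median was -2.06, -1.31, -0.19 and 0.70, against -2.04, -1.31, -0.15 and 0.69 with TMM. Upper-quartile factors moved the cold medians to -0.12 and -0.18. Me1 passed after cold in control mice with library size alone (-0.75), upper-quartile factors (-0.70), at least 10 counts in every mouse (-0.64) and only the groups compared (-0.64), and Acacb passed in mice labelled KO under the first 3 of these (-0.53, -0.34 and -0.25). Genes called over the whole table ran from 9 to 48 for the label at thermoneutrality and from 5 to 197 after cold among the settings with all mice, the highest with DESeq2, and from 27 to 488 for the difference. Without control mouse 7 alone edgeR called 93 at thermoneutrality and 371 for the difference, without mouse 22 alone 100 after cold and 302 for the difference, and without the pair 93, 232 and 548.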
